A study of Solanum lycopersicum with 6 samples.

Results

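Across the axillary buds of 2 tomato cultivars, 69 of 25440 loci were listed at 0 FPKM in all 3 libraries of a single cultivar while reaching a mean of at least 1 FPKM in the other. FPKM counts fragments per length of transcript and per size of library, so levels of different loci can be compared. At 26 loci the zeros were in monomaker and the expression in compound raceme, and at 43 loci the zeros were in compound raceme and the expression in monomaker. Over all loci these are 0.102% and 0.169%. The loci were chosen by the FPKM values of both cultivars, so the difference between the cultivars at them is described and not tested. The series holds 3 monomaker libraries, titled WT, and 3 compound raceme libraries, titled BJ, made from RNA of axillary buds of greenhouse-grown plants, with no treatment, time or age named in the labels. Whether each library came from its own plant is not said in the labels.

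An axillary bud forms where a leaf joins the stem and holds a meristem that can stay dormant, grow into a leafy shoot or go on to flower. Cultivars of a crop can differ in which genes a tissue transcribes, and also in whether a gene is present or matches the reference sequence onto which reads are placed. Values are rounded to 2 decimals, so a 0 says only that no fragment, or too few to show, was assigned to the locus in that library. A gene that is missing, silent or too low for the depth thus looks the same in this table. In bulk samples such as these, fewer cells of a type and less RNA per cell cannot be told apart either. The table gives no gene names, and most loci below are therefore known by identifier alone. A Solyc identifier gives the chromosome in its first number and the order along that chromosome in its second.

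Library totals lay between 674654 and 750250 FPKM, and 22755 to 23027 loci per library were above 0. Read counts are not used here, so absolute depth is unknown. Among rows with low values in both libraries, the commonest log2 ratio to monomaker 1 lay between -0.15 and 0.05 for each other library. It covered from 76 of 737 rows, in compound raceme 3, to 128 of 835 rows, in compound raceme 1. Relative depths thus looked close together, but this is a rough guide. Of 11 marker genes of bud, floral tissue, leaf and trichome, 8 could be placed in the RefSeq gene order. The bud genes BRC1A and BRC1B, of which BRC1B restrains bud outgrowth, and LS, needed to form axillary meristems, were above 0 in all 6 libraries. BRC1B had 32.2, 27.2 and 11.5 FPKM in monomaker, against 53.9, 55.7 and 43.4 FPKM in compound raceme. The ranges of the cultivars overlapped for BRC1A and LS. BRC1A had 4.95, 3.26 and 2.43 FPKM in monomaker, against 5.09, 5.87 and 3.89 FPKM in compound raceme. LS had 1.21, 0.70 and 0.45 FPKM, against 0.35, 1.23 and 0.77 FPKM. The petal and stamen gene TPI had 2.89, 4.30 and 4.59 FPKM in monomaker 1 to 3, against 0.24, 0.06 and 0.36 FPKM in compound raceme 1 to 3, whereas the related TM6 had 31.1, 41.0 and 36.2 FPKM and 49.5, 80.1 and 66.0 FPKM. The light-harvesting gene CAB12 had 60.4, 440 and 722 FPKM in monomaker, against 46.0, 19.8 and 23.3 FPKM in compound raceme. The trichome terpene synthase TPS5 ran from 16.3 to 23.9 FPKM in monomaker and from 35.6 to 69.9 FPKM in compound raceme. The part of bud state or of floral, leaf or trichome tissue in the zeros below was not tested.

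**Figure D1:**
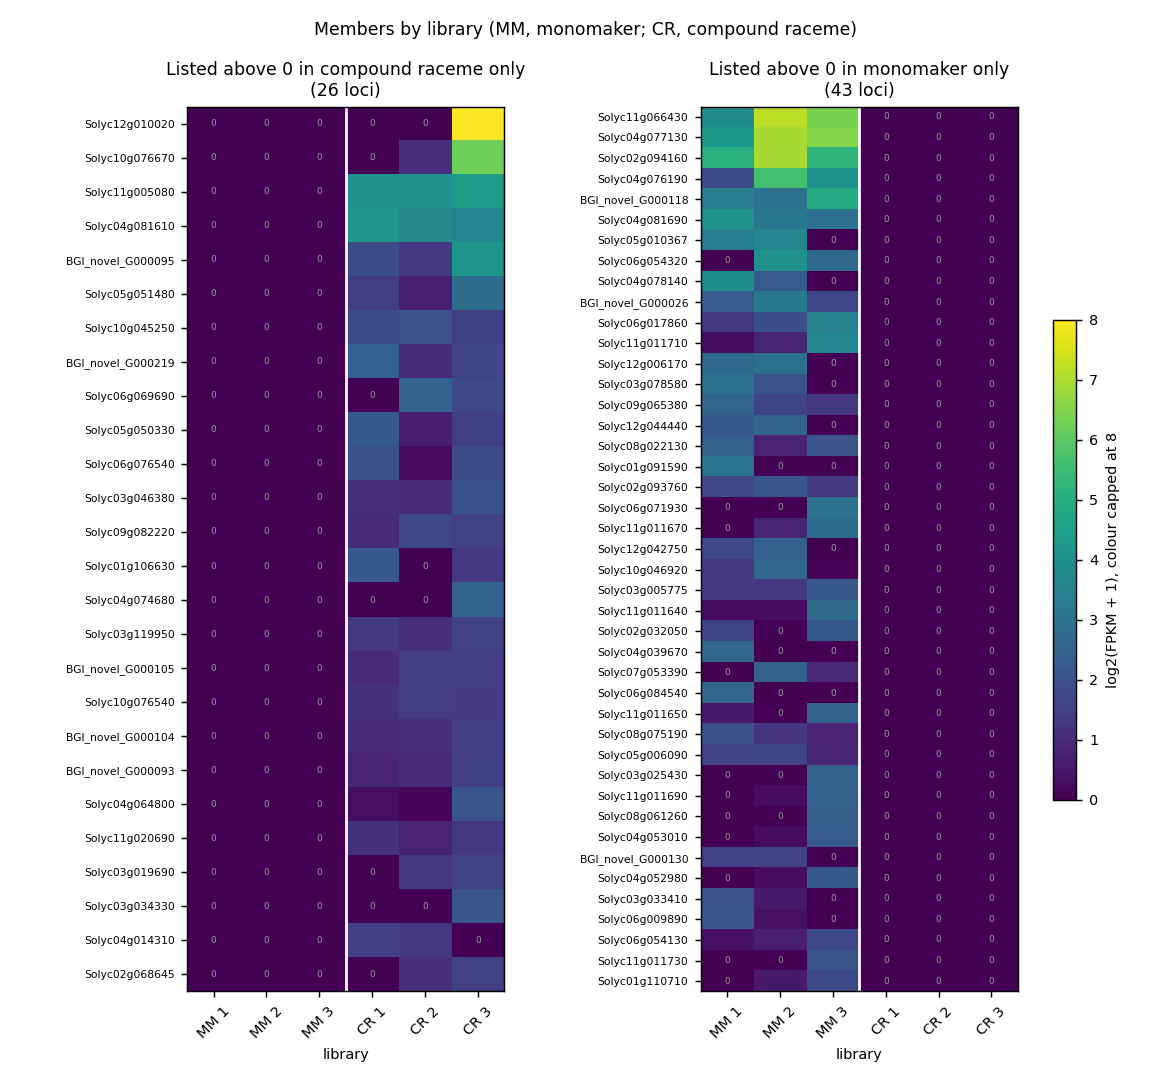
Each row is 1 of the 69 loci and each column 1 library, with colour giving log2(FPKM + 1), capped at 8, and a printed 0 where the table lists 0; loci are ordered by their mean in the expressing cultivar. The 26 loci on the left are dark in all monomaker libraries and the 43 on the right in all compound raceme libraries, and within the expressing cultivar many rows have 1 bright library.

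A mean from 1 to 2 FPKM in the expressing cultivar was found at 17 of the 26 loci with zeros in monomaker and at 18 of the 43 with zeros in compound raceme. Counting any level above 0, 931 loci were at 0 throughout monomaker and above 0 somewhere in compound raceme, and 97.2% of them had a compound raceme mean below 1 FPKM. In the other direction there were 1097 loci, 96.1% of them below 1 FPKM. Of 1653 loci with a compound raceme mean from 1 to 2 FPKM, 17 were at 0 in monomaker (1.03%), and of 9526 loci with a mean from 10 to 100 FPKM, 3 were (0.0315%). In monomaker the shares were 18 of 1540 (1.17%) and 6 of 9486 (0.0633%). A locus expressed at 10 FPKM or more and at 0 in the other cultivar was thus rare in either direction. From 2 to 5 FPKM the directions differed more, with 16 of 2934 loci expressed in monomaker (0.545%) and 4 of 2844 in compound raceme (0.141%). This difference was not tested. The 16 include the near neighbours Solyc11g011640, Solyc11g011670 and Solyc11g011710, which rest on monomaker 3 alone.

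**Figure D2:**
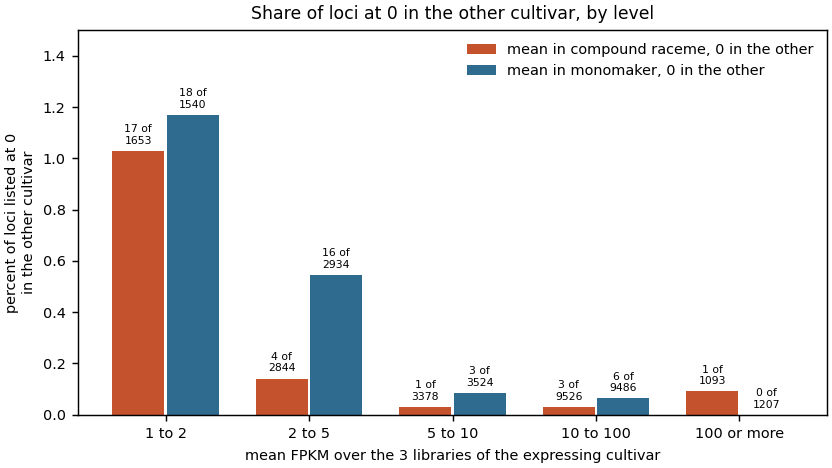
Bars give, for each range of the mean FPKM in the expressing cultivar, the percent of loci listed at 0 in all 3 libraries of the other cultivar, with the counts above each bar. The share falls from 1.03% and 1.17% at 1 to 2 FPKM to under 0.1% at 5 FPKM and above in both directions.

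Among the loci expressed in compound raceme only, Solyc11g005080 and Solyc04g081610 stood out for even levels well above the threshold. Solyc11g005080 had 15.04, 15.5 and 19.4 FPKM in compound raceme 1 to 3. Its highest library was 1.29 times its lowest, the smallest such ratio of the 17 loci in this direction that were above 0 in all 3 libraries. Solyc04g081610 (chromosome 4, 65633455 to 65738401 of SL3.0, minus strand) had 17.1, 12.6 and 11.6 FPKM. Both were thus above 11 FPKM in every compound raceme library and at 0 in every monomaker library.

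The next loci in this direction were lower and less even. BGI_novel_G000095, which has a BGI_novel and not a Solyc identifier and lies on chromosome 4 (958858 to 965728 of SL3.0), had 2.56, 1.54 and 16.8 FPKM, with 80.4% of its sum in compound raceme 3. Solyc05g051480 had 1.60, 0.58 and 6.06 FPKM and was also highest in that library. Solyc10g045250 (chromosome 10, 32330304 to 32333124 of SL3.0) was even, at 2.52, 3.14 and 1.80 FPKM. BGI_novel_G000219, Solyc05g050330 and Solyc06g076540 were instead highest in compound raceme 1, at 4.24, 3.57 and 2.98 FPKM, and lowest in compound raceme 2, at 1.08, 0.55 and 0.18 FPKM. Solyc03g046380 and Solyc09g082220 stayed between 1.04 and 3 FPKM in all 3 libraries. The other 7 loci of this direction above 0 in all 3 libraries had means from 1.15 to 1.49 FPKM. Different libraries thus led these loci. Compound raceme 3 was the highest for 15 of the 26 loci in this direction (57.7%), against 32.6% of the other loci with a mean of 1 FPKM or more. Without compound raceme 3, 17 of the 26 still met the rule, against 24 without compound raceme 1 and 23 without compound raceme 2.

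The 2 highest means in this direction came almost wholly from compound raceme 3. Solyc12g010020 had 579 FPKM in that library and was listed at 0 in the other 5. Published assignments, as recalled, make it LAPA1, a leucine aminopeptidase gene that wounding and jasmonate induce in tomato, and its place in the RefSeq gene order allows that name or that of its neighbour LAPA2. It made up 77.3% of the summed FPKM of the 26 loci in that library. Its listed neighbour Solyc12g010025 was not at 0 anywhere, with 502, 66.5 and 51.0 FPKM in monomaker 1 to 3, against 158, 2067 and 1942 FPKM in compound raceme 1 to 3. Solyc12g010030, recalled as LAPA2, a close relative of LAPA1, and under the same limit of place, had 15.3, 2.42 and 3.31 FPKM in monomaker, against 4.62, 94.7 and 72.3 FPKM in compound raceme. Compound raceme 2 was thus as high as compound raceme 3 at both neighbours and yet at 0 for Solyc12g010020. Reads of close copies may be split among them, so its zeros are uncertain, and whether this happened was not tested. The jasmonate synthesis gene AOC was also highest in compound raceme 3, at 1267 FPKM, against 165 and 359 FPKM in compound raceme 1 and 2 and 54.8 to 140 FPKM in monomaker.

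Solyc10g076670 had 0, 1.12 and 74.3 FPKM in compound raceme 1 to 3, and its neighbour Solyc10g076660 had 0.43, 9.55 and 67.1 FPKM there. The neighbour was not at 0 in monomaker, with 0.67, 0.43 and 0.13 FPKM. Both loci thus rank the compound raceme libraries in the same order, and only the first falls under the rule. On the other side, Solyc10g076680 did not share this order, with 0, 0.31 and 0 FPKM in compound raceme and 0 throughout monomaker. Solyc12g010020, Solyc10g076670, their neighbours and AOC were singled out after their values had been seen.

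Among the loci expressed in monomaker only, the 3 highest were above 13 FPKM in every monomaker library. Solyc11g066430 had 13.5, 148 and 82.4 FPKM in monomaker 1 to 3. Solyc04g077130 had 18.1, 124 and 90.02 FPKM, and Solyc02g094160 had 32.5, 120 and 35.5 FPKM. All 3 were lowest in monomaker 1 and highest in monomaker 2. Solyc04g076190 followed the same order at 2.63, 49.2 and 15.8 FPKM. CAB12, given above, was also lowest in monomaker 1 but highest in monomaker 3. The neighbour Solyc11g066440 had 20.3, 60.9 and 48.6 FPKM in monomaker, again lowest in monomaker 1. It did not share the zeros, with 11.7, 12.4 and 20.4 FPKM in compound raceme. On the other side of Solyc11g066430, Solyc11g066420 had 0.52, 0.06 and 0 FPKM in monomaker, highest in monomaker 1. Neighbours of the other 3 loci had other orders. Solyc04g077140 had 32.04, 22.7 and 20.6 FPKM in monomaker, highest in monomaker 1. Solyc02g094170 with 23.0, 34.9 and 14.8 FPKM and Solyc04g076180 with 16.3, 23.1 and 14.8 FPKM were lowest in monomaker 3. Solyc04g077120 had 13.37, 15.85 and 13.3 FPKM, and Solyc02g094150 had 7.47, 6.39 and 6.9 FPKM. Solyc04g076200, next to Solyc04g076190, was lowest in monomaker 1, at 5.97, 6.77 and 9.46 FPKM. These neighbours were picked after their values had been seen.

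The remaining loci of this direction with values in all 3 libraries were led by different libraries. BGI_novel_G000118 (chromosome 4, 63006648 to 63007657 of SL3.0) had 9.22, 6.98 and 29.3 FPKM, and Solyc06g017860 had 1.41, 2.79 and 10.2 FPKM. Both were highest in monomaker 3. Solyc04g081690 (chromosome 4, 65693089 to 65715231 of SL3.0, minus strand) had 15.7, 8.23 and 6.59 FPKM and Solyc09g065380 had 5.12, 2.03 and 1.44 FPKM, both highest in monomaker 1. BGI_novel_G000026 (chromosome 1, 57195129 to 57223419 of SL3.0) had 3.89, 8.46 and 2.33 FPKM. Apart from Solyc11g011710, given below with its neighbours, the other 8 loci above 0 in all 3 monomaker libraries had means from 1.08 to 2.74 FPKM. Of the 43 loci, 11 were highest in monomaker 1 (25.6%), 15 in monomaker 2 (34.9%) and 17 in monomaker 3 (39.5%), and 6 of the last lie in a single stretch on chromosome 11. Among the other loci with a mean of 1 FPKM or more the shares ran in the reverse order, 50.2%, 29.1% and 20.7%.

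Many of these loci were also listed at 0 in part of the expressing cultivar. Of the 26 loci expressed in compound raceme only, 17 were above 0 in all 3 of its libraries (65.4%), 6 in 2 and 3 in a single library. Of the 43 expressed in monomaker only, 18 were above 0 in all 3 (41.9%), 18 in 2 and 7 in a single library. With means from 1 to 5 FPKM the shares above 0 in all 3 were 66.7% and 35.3%. Among the other loci in that range, 98.3% of 4476 in compound raceme and 98.1% of 4440 in monomaker were above 0 in all 3 libraries. At least 1 FPKM in every library of the expressing cultivar was reached by 11 loci in each direction. The rule itself favours loci that vary among libraries and lie near 0, so these shares describe the loci and are not evidence about the cultivars.

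The spread showed in the levels as well. In the median locus expressed in monomaker only, 72.8% of the summed FPKM came from the highest library, against 56.9% for loci expressed in compound raceme only. For those with means from 1 to 5 FPKM the median share was 83.4% and 56.3%. Among the other loci in that range it was 43.3% in monomaker and 41.8% in compound raceme. In 14 of the 43 (32.6%) and 5 of the 26 loci (19.2%) over 90% of the sum came from 1 library. Among the other loci with a mean of 1 FPKM or more, the shares were 0.193% in monomaker and 0.211% in compound raceme. The rule favours such loci, so these shares too only describe them.

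Zeros within monomaker fell on all 3 libraries, with 11 of the 43 loci at 0 in monomaker 1, 9 in monomaker 2 and 12 in monomaker 3. Present in monomaker 1 and 2 and at 0 in monomaker 3 were 9 loci, among them Solyc05g010367 (9.26 and 12.3 FPKM), Solyc04g078140 (14.2 and 3.89 FPKM), Solyc12g006170 (5.65 and 6.72 FPKM) and Solyc03g078580 (6.65 and 3.16 FPKM). Present in monomaker 2 and 3 and at 0 in monomaker 1 were 7 loci, led by Solyc06g054320 with 15.4 and 5.68 FPKM, and 4 of them lie in the runs on chromosomes 4 and 11 described below. Monomaker 1 and 3 without monomaker 2 had 2 loci. In 3 loci monomaker 1 was the only library above 0, and in 4 loci monomaker 3 was. These examples were picked after their values had been seen, as the highest of their pattern.

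Nearest the threshold in compound raceme, Solyc02g068645 with 0, 1.17 and 1.89 FPKM and Solyc04g014310 with 1.73, 1.46 and 0 FPKM were just inside. Solyc01g108050 with 2, 0.09 and 0.90 FPKM and Solyc09g092010 with 1.07, 0.88 and 0.84 FPKM were just outside. In monomaker, Solyc01g110710 with 0, 0.49 and 2.51 FPKM and Solyc11g011730 with 0, 0 and 3.23 FPKM were just inside, while Solyc09g031760 with 0, 1.04 and 1.84 FPKM and Solyc02g084005 with 0, 1.21 and 1.60 FPKM were just outside. In monomaker, the loci on both sides of the threshold were thus at 0 in monomaker 1. In compound raceme, those just inside were each at 0 in a library, and those just outside were above 0 in every library.

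A few loci missed the rule through a trace in 1 library. Solyc11g042740 had 7.88, 10.2 and 8.45 FPKM in compound raceme, against 0.06, 0 and 0 FPKM in monomaker, a level and evenness close to the strongest members. BGI_novel_G000020 and Solyc11g013060 were the other 2 such loci in that direction, with compound raceme means of 1.38 and 1.18 FPKM. In the other direction there were 4, led by Solyc12g035225, with 7.30, 7.96 and 0 FPKM in monomaker, against 0.02 FPKM in compound raceme 3. The floral organ gene TM5 (Solyc05g015750), a SEPALLATA-class MADS-box factor, missed through 0.05 FPKM in compound raceme 3 and had 5.18, 3.63 and 2.45 FPKM in monomaker. Solyc04g081000 missed through 0.10 FPKM in compound raceme 2. More loci were kept out by a single monomaker library when that library was monomaker 1. It was the only monomaker library above 0 at 30 loci whose compound raceme mean was 1 FPKM or more, against 15 loci for monomaker 2 and 11 for monomaker 3. In the other direction the counts were 16, 11 and 18 for compound raceme 1 to 3. Leaving out a monomaker library adds these loci to the 26, which gives 56 without monomaker 1 and 41 without monomaker 2.

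**Figure D3:**
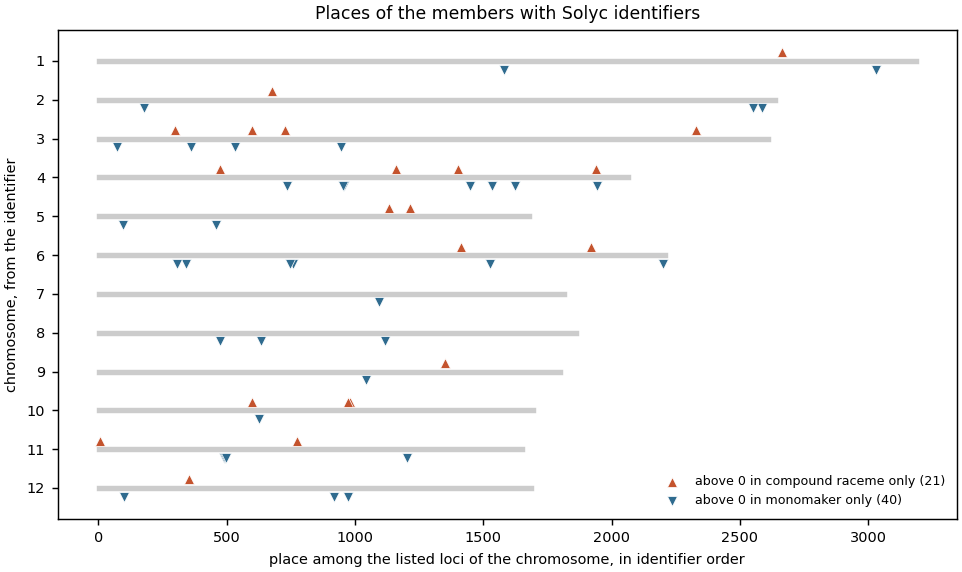
Grey bars give the listed loci of chromosomes 1 to 12 in identifier order, and triangles the 21 loci above 0 in compound raceme only (pointing up) and the 40 above 0 in monomaker only (pointing down); loci with BGI_novel identifiers have no place in this order. Most members lie apart, and the points on chromosome 11 near place 490 are 6 loci drawn over each other.

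By position, chromosome 4 held the most of these loci, 7 expressed in compound raceme only and 8 in monomaker only. That is 21.7% of the 69 loci, against 8.22% of all loci. Chromosomes 3 and 11 held 9 each, and chromosome 7 held 1. Relative to loci whose mean reached 1 FPKM in either cultivar, the share was 0.933% on chromosome 4 and 0.703% on chromosome 11, and from 0.0708% to 0.465% on the other 10 numbered chromosomes. Neither figure was tested, and runs of neighbours add to both.

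Of the 61 loci with Solyc identifiers, 10 had another one within 5 listed loci (16.4%), against 2.18% of the 25044 loci outside the rule. They formed 3 groups, with 6 loci on chromosome 11 and 2 pairs on chromosome 4. The group on chromosome 11 lay in an unbroken stretch of 9 listed loci, Solyc11g011640 to Solyc11g011730, all at 0 in every compound raceme library. It was the longest such stretch in either direction, the next having 5 loci. Most stretches were single loci, 800 of them at 0 in monomaker and 898 at 0 in compound raceme.

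In all 9 loci of that stretch monomaker 3 was the highest library. Solyc11g011710 had 0.20, 0.76 and 11.8 FPKM in monomaker 1 to 3, Solyc11g011670 had 0, 0.79 and 6.14 FPKM and Solyc11g011640 had 0.20, 0.19 and 5.82 FPKM. Solyc11g011650, Solyc11g011690 and Solyc11g011730 had 4.65, 4.45 and 3.23 FPKM in monomaker 3 and at most 0.45 FPKM in the other 2. Solyc11g011660, Solyc11g011680 and Solyc11g011720 were too low for the rule, at 1.33, 2.07 and 2.07 FPKM in monomaker 3. The sum over the stretch was 0.85, 2.12 and 41.6 FPKM. The adjoining locus Solyc11g011630 followed the same order, with 0.64, 1.16 and 10.8 FPKM, but had 0.18 FPKM in each compound raceme library. On the other side Solyc11g011740 had 0.61, 0.30 and 0 FPKM in monomaker, against 0.61, 0.15 and 0.59 FPKM in compound raceme, and so did not share the pattern. In monomaker 1 and 2 all 9 loci were at 0.79 FPKM or less, so the 6 members rest on monomaker 3 alone.

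The pair Solyc04g052980 and Solyc04g053010 showed the same pattern. They had 0, 0.19 and 3.61 FPKM and 0, 0.19 and 3.80 FPKM in monomaker 1 to 3. The stretch from Solyc04g052890 to Solyc04g052990 held 5 loci at 0 throughout compound raceme, all highest in monomaker 3, with sums of 0, 0.19 and 8.29 FPKM. Solyc04g053000, between the pair, had 0, 0.42 and 3.38 FPKM in monomaker, against 0, 0.82 and 0.40 FPKM in compound raceme. These 2 members also rest on monomaker 3. Loci with neighbouring identifiers can be copies of each other, among which reads may be split, and no source used here says whether these are.

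The last group joined the directions. Solyc04g081610, expressed in compound raceme only, and Solyc04g081690, expressed in monomaker only, are on the same strand, and the 22143 bases of the second lie wholly within the 104947 bases of the first. The table gives coordinates for 8 of the 61 Solyc loci and all 8 BGI_novel loci under the rule, and among these no other overlap with a row that has coordinates was found; the rest could not be checked. Of the 3 listed loci between them in identifier order, Solyc04g081630, Solyc04g081640 and Solyc04g081670, all were at 0 in compound raceme and at 0.40 FPKM or less in monomaker. Outside the pair, Solyc04g081590 had 13.6, 14.7 and 21.1 FPKM in monomaker, against 8.69, 9.42 and 7.51 FPKM in compound raceme, and Solyc04g081700 was low in both. Each of the pair was above 0 in all 3 libraries of its expressing cultivar, while its zeros in the other cultivar were required by the rule. Overlapping loci can share reads, and whether the values trade reads between these loci was not tested.

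**Figure D4:**
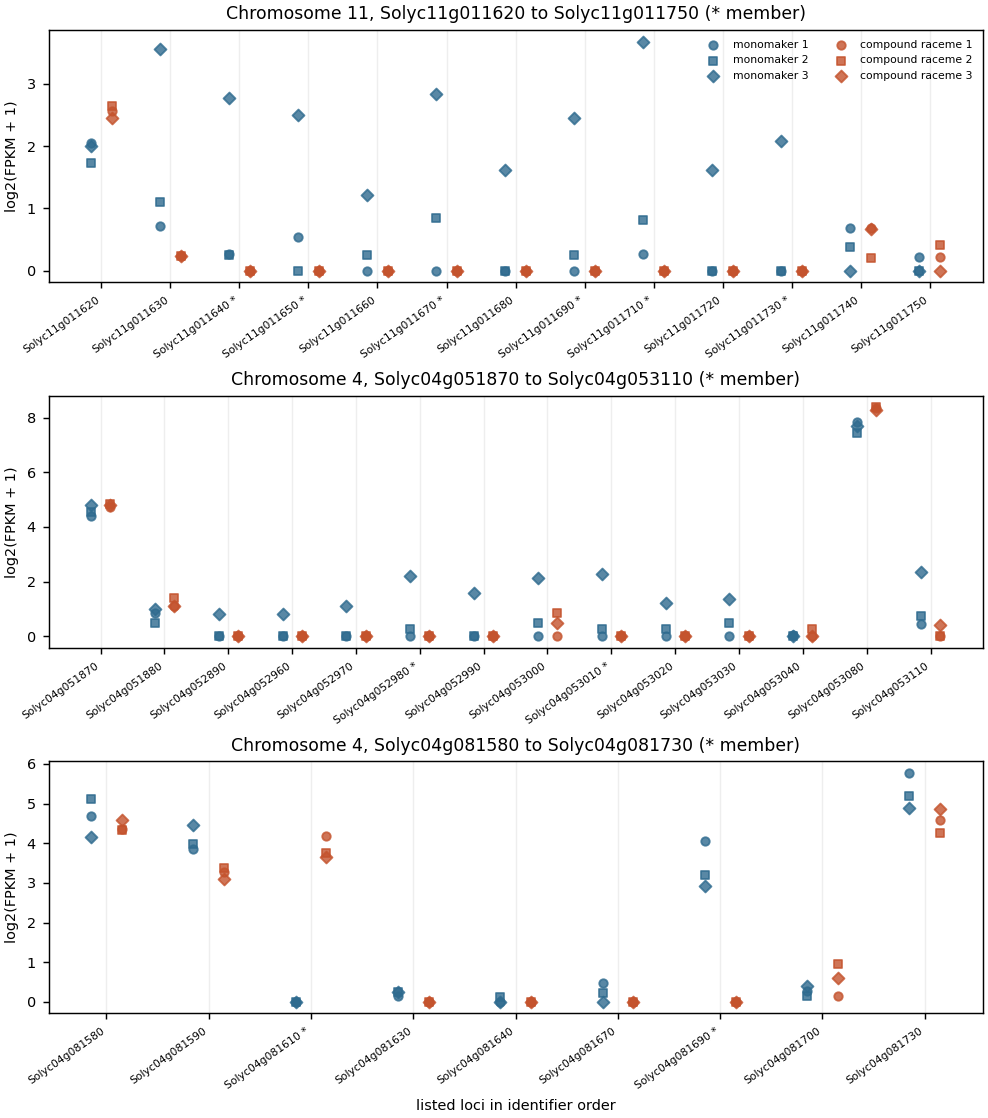
Points give log2(FPKM + 1) in each library (circle, square and diamond for libraries 1, 2 and 3; blue for monomaker and orange for compound raceme) at listed loci in identifier order, with members starred. In the upper 2 panels the blue diamonds of monomaker 3 stand above the other libraries across the starred loci, and in the lowest panel Solyc04g081610 is above 0 in orange only and Solyc04g081690 in blue only.

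A further close pair lies among the loci with BGI_novel identifiers on chromosome 4. BGI_novel_G000104 (26669716 to 26673497 of SL3.0) and BGI_novel_G000105 (26673599 to 26675997) are on the plus strand with 101 bases between them. They had 1.01, 1.15 and 1.72 FPKM and 1.01, 1.76 and 1.69 FPKM in compound raceme 1 to 3. Their levels were thus alike in compound raceme 1 and 3 and less so in compound raceme 2. Nothing in the table says whether they are parts of a single transcript.

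Identifiers starting with BGI_novel made up 5 of the 26 loci expressed in compound raceme only (19.2%) and 3 of the 43 expressed in monomaker only (6.98%), against 3.85% of the other loci whose higher cultivar mean was from 1 to 5 FPKM and 1.34% of those at 1 FPKM or more. Within 1 to 5 FPKM they were 4 of 21 and 2 of 34 of the loci, and no difference was tested. Of the Solyc loci, 3 of 61 have 2 rows in the table (4.92%), against 22.1% of the other loci in that range. A locus with 2 rows must be at 0 in both, so the rule itself works against them. Identifiers that do not end in 0, given to genes placed between older ones, were 3 of the 61 (4.92%). Among the other Solyc loci they were 8.70% in that range and 5.12% at 1 FPKM or more, the latter close to the members' share.

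Loci next to the members, which the rule did not use, were tested between the cultivars with limma on log2(FPKM + 1) over all loci whose mean was 1 FPKM or more. Of 115 such neighbours 86 could be tested, and 2 of them were called at an adjusted p below 0.05 (2.33%), both lower in compound raceme. Of all 18802 loci tested, 3.27% were called, so the neighbours lie near the background. An unadjusted limma p below 0.05 was found at 28 of the 86 (32.6%), against 25.7% of all loci tested. The neighbours' median log2 fold change of 0.02 was likewise close to that of all loci, 0.04.

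Published assignments, as recalled, make Solyc11g005090 the cyclin gene CYCA1. Its place in the RefSeq gene order cannot tell it from Solyc11g005080, the member next to it. Solyc11g005090 had 20.4, 27.2 and 30.9 FPKM in monomaker, against 8.37, 5.65 and 4.59 FPKM in compound raceme. It fell, with a log2 fold change of -1.93 and a limma adjusted p of 0.0201. Under 11 alternatives that p lay between 0.00947 and 0.101, with 6 of them below 0.05. The other neighbour of Solyc11g005080, Solyc11g005070, had 1.56 to 2.83 FPKM in both cultivars. Solyc03g119940, next to Solyc03g119950, had 2.66, 6.29 and 5.96 FPKM in monomaker, against 1.29, 0.73 and 0.85 FPKM in compound raceme, with a log2 fold change of -1.55 (limma adjusted p = 0.0492, from 0.00932 to 0.191 over the alternatives and below 0.05 in 3 of 11). Solyc03g119950 itself went the other way, with 1.52, 1.10 and 1.86 FPKM in compound raceme and 0 in monomaker. Within 3 listed loci there was 1 more called locus, Solyc02g094130, near Solyc02g094160, which rose from 128 ± 2.16 to 234 ± 18.6 FPKM (SD, n = 3; log2 fold change 0.86, limma adjusted p = 0.0340, from 0.0282 to 0.147 over the alternatives and below 0.05 in 4 of 11). Without monomaker 1 the number of called neighbours was 13, beside 2041 called over all loci. Without monomaker 2 or 3 or compound raceme 2 or 3 the number of called neighbours was 0 by limma. In those fits 12 to 22 of the neighbours had an unadjusted p below 0.05, and 6 to 15 were called over all loci. CYCA1 was named after its values had been seen.

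In the same fit 9 of the 26 and 25 of the 43 loci had a high enough mean to be tested, and 3 and 9 of them were called, where 0.75% of all loci were called higher and 2.52% lower in compound raceme. With quantile normalization the split over all loci was 222 higher of 673, against 141 of 614. The rule used this contrast, so nothing is read from these counts. The authors' deposited table gives a q-value below 0.05 to 13 of the 26 and 17 of the 43, beside 3.54% of all its rows called higher and 6.63% called lower in compound raceme.

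The authors' deposited log2 ratios separate loci that have like FPKM values. In the authors' deposited table Solyc05g006090, with 1.98, 2.15 and 0.78 FPKM in monomaker, has a log2 ratio of -4.95 and a q-value of 3.39e-09. Solyc08g075190, with 2.96, 1.34 and 0.69 FPKM, has -1.22 and 0.386 in the same table. In the other direction Solyc03g119950 has a log2 ratio of 5.43 and Solyc10g076540, with 1.24, 1.63 and 1.57 FPKM, has 1.4 in the authors' deposited table. At equal FPKM a longer transcript collects more reads, and neither transcript lengths nor counts are in the table, so the part of length in these ratios was not tested. Solyc12g010020, with 579 FPKM in a single library, has a log2 ratio of 0.56 and a q-value of 0.712 in the authors' deposited table. These examples too were picked after their values had been seen. There, all 13 loci in compound raceme with a q-value below 0.05 were above 0 in all 3 libraries, as were 14 of the 17 in monomaker.

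**Figure D5:**
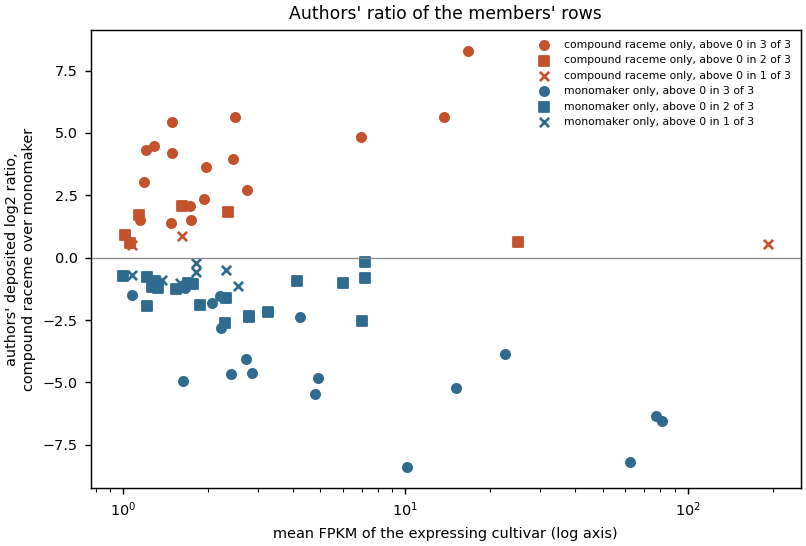
Points give, for each row of the 69 loci, the log2 ratio of compound raceme over monomaker deposited by the authors against the locus mean FPKM in the expressing cultivar (log axis), with the marker showing in how many of its 3 libraries the locus was above 0. At means from 1 to 2 FPKM, loci above 0 in all 3 libraries run from 1.4 to 5.43 in compound raceme and from -4.95 to -1.22 in monomaker, and the highest mean of all, a locus above 0 in 1 library, sits at 0.56.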

How the data were processed

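RNA of axillary buds was sequenced from 3 monomaker and 3 compound raceme libraries on BGI500, per the labels' protocols. Per the submitters' processing notes, the tools were RSEM 1.2.12, DESeq2 1.4.5, HISAT2 2.0.4 and Bowtie2 2.2.5, in no stated order or role. The authors deposited FPKM values, rounded to 2 decimals, in a table of 31139 rows, per the file headers. The deposited log2 ratio, p-value and q-value are the authors' own, made in a way not given in the sources used here. Chromosome names are those of SL3.0, and 7639 rows carry coordinates. The annotation release and the strand setting are not given in the sources used here.

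FPKM values were summed over rows sharing the first 14 characters of a Solyc identifier, which joined the rows of 5699 loci. BGI_novel identifiers were kept whole. The planned test for normalized values applied: limma 3.58.1 in R 4.3.3 on log2(FPKM + 1), with an intensity trend, for loci whose mean was 1 FPKM or more, and Benjamini-Hochberg adjustment over all of them. It was tested on simulated data. No fold is given against a cultivar at 0. P-values weigh the difference between the cultivars against the spread between libraries, which may be technical. Depth is unknown, so no counting interval is given.

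The loci, lists and tests were chosen with earlier results of these data known. Named loci are, for each direction, the 10 highest means above 0 in all 3 libraries, the 2 loci on each side of the threshold, up to 3 loci missing the rule through 1 library at 0.1 FPKM or less, runs of neighbours, and called neighbours; others are said to be picked after their values were seen. Gene names come from published assignments as recalled and were used where the RefSeq table (assembly SLM_r2.1) lists the gene, by symbol or synonym, on the same chromosome within 0.05 of the same place in gene order, which cannot tell close neighbours apart. Of the 11 markers, BL had no symbol there, and TAG1 and RBCS1 lay farther off. Alternatives changed the threshold, the zero, the rows, the normalization, the window and the libraries.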

Additional observations from a re-analysis of the deposited data

How the results depend on the processing

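The number of loci depends on the threshold. Loci expressed in compound raceme only numbered 26, and 64, 9 and 5 at a minimum mean of 0.5, 2 and 5 FPKM; those expressed in monomaker only numbered 43, and 83, 25 and 9. With rows as deposited there were 45 in compound raceme and 61 in monomaker. All 3 libraries above 0 left 17 and 18, and at least 1 FPKM in all 3, chosen after seeing the data like the next 2 settings, left 11 and 11. A median of at least 1 FPKM gave 24 and 28, and leaving out both libraries numbered 1 gave 66 and 67. Leaving out 1 library gave 24 to 56 and 38 to 61, the 56 without monomaker 1, and 41 without monomaker 2. Up to 0.05 FPKM in the other cultivar gave 31 and 47. Members near another numbered 10, and 4 within 1 listed locus, 14 within 20 and 5 at a minimum mean of 2 FPKM.

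Over all loci limma called 614, from 6 to 2041 with 1 library left out (6 and 7 without compound raceme 2 and 3, 8 and 15 without monomaker 2 and 3, 2041 without monomaker 1) and 1921 without both libraries numbered 1. With a replicate block it called 0, with 4676 loci at an unadjusted p below 0.05. Deviations of same-numbered libraries correlated at 0.03, 0.06 and 0.10 across loci, so not every pair passed 0.1. Monomaker 2 and 3 correlated best with their own number and monomaker 1 with compound raceme 2. Correlations this weak cannot decide whether same-numbered libraries share more than a number. Neighbours of members called numbered 2, with 1 without the filter, 1 with quantile normalization, 0 to 13 with 1 library left out and 12 without both libraries numbered 1; with the replicate block limma called 0, with 29 at an unadjusted p below 0.05. The count test and DESeq2 were not run, since the table holds no counts. The cause of these changes was not tested. Depth limits every zero: at unknown depth a locus listed at 0 is not shown to be silent.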
